A study of Mus musculus with 30 samples.

Results

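The comparison of subthreshold training with the home cage rests on 12 of the 30 libraries of the study, 6 VEH-T3 and 6 VEH-HC, and on 13184 of 24883 rows of the expression table, those with a mean of at least 1 FPKM over all 30 libraries. FPKM is the number of fragments of a gene scaled to the length of its transcript and to the mapped fragments of the library. Members were taken by their labels, not by any measured value. Each library came from the dorsal hippocampus of 1 wild-type male C57BL/6J mouse, aged 2 to 4 months and single-housed. All 12 mice received bilateral infusions of the in vivo-jetPEI transfection reagent without DNA into the dorsal hippocampus some days before behaviour, so the home cage mice also carried the surgery and the reagent. VEH-T3 mice explored a pair of identical objects for 3 min, the training session of the object location memory task, and the tissue was taken 1 h after it. VEH-HC mice stayed in the home cage and, per the study's methods, received only handling before collection. The object location protocol also habituates mice to the empty chamber on several days before training. Habituation to the chamber and the training session therefore cannot be told apart in this comparison. The other 18 libraries are VEH-T10 (reagent only, 10 min of training), Y397F-T10 and Y397D-T3 (10 min and 3 min of training after a plasmid for HA-tagged CREST with a changed tyrosine, under a CaMKII minimal promoter), with 6 mice each. They entered the fit for its estimate of the spread and are otherwise used only where named.

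In the object location task a rodent that remembers where objects stood explores a displaced one more, and a 3 min session is used because it leaves too weak a trace for long-term memory in untreated mice, whereas a 10 min session leaves one. Exploration and neuronal firing induce immediate-early genes such as Fos, Egr1, Arc and the Nr4a receptors, in part through phosphorylated CREB and its coactivator CBP at cyclic AMP response elements. Circadian clock genes also cycle in the hippocampus: CLOCK and BMAL1 drive Per, Cry, Nr1d1, Dbp and Ciart through E-boxes, and the products of several of these repress that drive. CREST (Ss18l1) is a subunit of the neuronal BAF chromatin remodelling complex that works with CBP.

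Some facts on the libraries bear on every count. The calls rest on the spread estimated from all 30 libraries: limma fitted to the 12 libraries alone called 0 rows in either direction, with a smallest adjusted p of 0.0528 and 839 higher and 1680 lower rows at an unadjusted p under 0.05. VEH-HC mouse 4 stood apart. Its deviations from the gene means had a Spearman correlation of -0.58 with transcript length, and without it 77 rows were called higher and 78 lower. VEH-T3 mouse 1 received the lowest array weight of the 30 libraries (0.30), and without it 472 rows were called higher and 817 lower. Relative depth, estimated from single-fragment steps in low rows, was 0.947 to 1.2 of the median library in VEH-HC and 0.842 to 1.16 in VEH-T3, and absolute depth is unknown. The markers of hippocampal pyramidal neurons summed to 183 to 196 FPKM (CA1) in VEH-HC and to 163 to 207 FPKM in VEH-T3, so the labelled tissue was found in both groups. Dentate granule cell markers summed to 129 to 160 FPKM and to 92.5 to 198 FPKM, so the tissue held dentate gyrus as well as CA1. In bulk tissue, fewer cells of a type and less RNA per cell cannot be told apart.

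The promoters of 4 genes are shown because these genes changed and belong to the groups described below: Ciart and Dbp to clock output, Homer1 and Nr4a3 to activity-induced genes. They were chosen after their values were seen. Each is the 250 bases upstream of the RefSeq start (table build GRCm38.p6), written 5′ to 3′ on the strand of the gene. Capitals mark the E-box CACGTG in Ciart and the cyclic AMP response element half-site, TGACG or CGTCA, in Homer1 and Nr4a3.
Ciart (chr3:95882229-95882478, minus strand): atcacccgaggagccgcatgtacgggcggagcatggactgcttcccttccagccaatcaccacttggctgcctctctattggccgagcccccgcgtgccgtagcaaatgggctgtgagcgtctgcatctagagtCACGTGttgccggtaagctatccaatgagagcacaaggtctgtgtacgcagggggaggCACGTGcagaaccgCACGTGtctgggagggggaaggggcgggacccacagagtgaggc
Dbp (chr7:45704997-45705246, plus strand): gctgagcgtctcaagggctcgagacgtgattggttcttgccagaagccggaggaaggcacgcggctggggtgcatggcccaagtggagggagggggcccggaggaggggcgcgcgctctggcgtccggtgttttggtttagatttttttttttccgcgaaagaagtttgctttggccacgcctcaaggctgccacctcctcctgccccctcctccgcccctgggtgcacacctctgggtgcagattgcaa
Homer1 (chr13:93303507-93303756, plus strand): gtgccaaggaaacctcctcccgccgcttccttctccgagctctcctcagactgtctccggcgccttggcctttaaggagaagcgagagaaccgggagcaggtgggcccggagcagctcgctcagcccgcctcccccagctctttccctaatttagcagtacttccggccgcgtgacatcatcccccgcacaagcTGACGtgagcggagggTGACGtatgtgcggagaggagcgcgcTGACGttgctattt
Nr4a3 (chr4:48045055-48045304, plus strand): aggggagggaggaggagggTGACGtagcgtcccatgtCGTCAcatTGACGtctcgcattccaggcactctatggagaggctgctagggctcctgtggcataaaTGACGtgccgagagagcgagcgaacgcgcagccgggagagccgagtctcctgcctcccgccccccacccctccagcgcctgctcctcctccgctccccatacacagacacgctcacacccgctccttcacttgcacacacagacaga
The Ciart window holds 3 E-boxes, beginning at -116, -58 and -44 from the start, whereas 6.02% of 32851 promoter windows of the same length hold any. The Homer1 window, which belongs to the first of its RefSeq starts, holds 3 half-sites at -56, -40 and -14, and the Nr4a3 window holds 4 at -231, -213, -205 and -147; both strands were searched, and 17.8% of windows hold at least 1. The Dbp window holds neither motif, nor a D-box (TTATGTAA or TTACATAA, in 0.819% of windows). Gene spans given below come from GENCODE, whose starts differ from those of RefSeq. The Dbp window lies mostly, and the Homer1 window wholly, inside the span of its gene. A motif missing from the Dbp window can therefore still lie farther upstream. A match is a string of letters and not a measured binding site.

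After 3 min of training, the clock genes Dbp, Ciart and Nr1d1 were lower, Per2, Clock and some activity-induced genes and chromatin regulators were higher, and most changes were small. Of the 13184 rows, 294 were higher in VEH-T3 (2.23%) and 387 were lower (2.94%) at a limma adjusted p under 0.05. The median fold of the raised rows was 1.22 and that of the lowered rows 0.833, 25 raised and 24 lowered rows exceeded 0.5 on the log2 scale, and 199 and 266 stayed under 0.3. All log2 differences are of log2(FPKM + 1), which understates the change of rows near 1 FPKM. All 6 VEH-T3 mice lay above all 6 VEH-HC mice in 89 rows (0.675%) and below them in 173 rows (1.31%). Without any single one of the 12 mice, 66 rows stayed called as higher (0.501%) and 61 as lower (0.463%) in every one of the 12 fits.

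**Figure D1:**
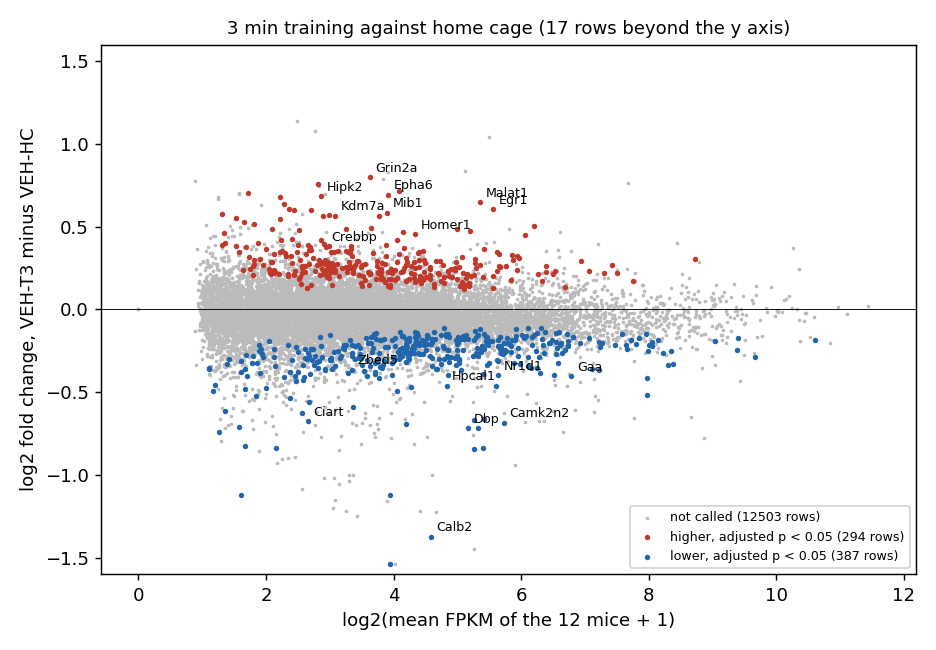
Log2 difference between VEH-T3 and VEH-HC (vertical axis) against the log2 mean FPKM of each of 13184 rows (horizontal axis), with the 294 rows called higher and the 387 called lower coloured. The 17 rows beyond the vertical axis limits are not shown. Most coloured points lie within 0.5 of 0 on the log2 scale.

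The raised rows came from longer transcripts with less GC. Their median transcript length was 6338 bases and their median GC content 45.6%, against 2803 bases and 54.9% for the lowered rows and 3437 bases and 49.9% for all annotated rows. Length and GC content are those of the longest annotated transcript of a symbol, which need not be the form expressed. Across rows, the log2 difference had a Spearman correlation of 0.33 with length and -0.28 with GC content, and 0.21 and -0.24 without VEH-HC mouse 4; rows of one library are not independent. When each library's trend on length and GC content was taken out, 178 of 12686 annotated rows were called higher (1.4%) and 37 lower (0.292%), 130 and 30 of them shared with the counts above. VEH-HC mouse 4 was the home cage mouse farthest from VEH-T3 in 203 of the 294 raised and 191 of the 387 lowered rows. In any row 1 of the 6 home cage mice is farthest, and the share of mouse 4 over all rows is not given here. Whether length, GC content or that mouse produced a given change was not tested, and the genes below that lose their call with the trend taken out are named beside their values. That was 34 of the 82 named genes, and 43 lost it without VEH-HC mouse 4.

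Dbp, a transcription factor of clock output (chr7:45705088-45710203 in mm10), had a lowest, median and highest level of 31.4, 42.4 and 53.3 FPKM in VEH-HC and 21.7, 25.2 and 30.5 FPKM in VEH-T3. The groups did not overlap, and the log2 difference was -0.72 (SE 0.11, adjusted p 0.0036). Ciart, a repressor of CLOCK and BMAL1 (chr3:95878503-95882251), stood at 4.65, 7.06 and 8.59 FPKM in the home cage and at 3.16, 3.76 and 4.6 FPKM after training, also without overlap (log2 difference -0.67, SE 0.13, adjusted p 0.0090). Nr1d1, the REV-ERBα receptor that represses Bmal1 (chr11:98767932-98775333), lay between 51.9 and 60.5 FPKM with a median of 55.2 in VEH-HC and between 36.6 and 50.0 FPKM with a median of 41.7 in VEH-T3. Its log2 difference was -0.40 (SE 0.070, adjusted p 0.0047), and -0.29 (adjusted p 0.099) once length and GC content were removed. All 3 genes were lower than every home cage mouse in each of the 6 trained mice.

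Per2, a period gene that represses CLOCK and BMAL1, moved the other way (chr1:91415982-91459324). Its lowest, median and highest levels were 4.39, 4.65 and 5.32 FPKM in VEH-HC and 4.88, 6.32 and 7.68 FPKM in VEH-T3, with a log2 difference of 0.36 (SE 0.074, adjusted p 0.011), and the groups overlapped. Clock itself (chr5:76209868-76304792) rose from 5.50, 7.05 and 7.13 FPKM to 7.62, 8.19 and 8.72 FPKM without overlap (log2 difference 0.24, adjusted p 0.013), and its adjusted p was 0.077 with length and GC content removed. Per1, a paralogue of Per2 that light and activity also induce, had medians of 17.4 and 18.6 FPKM and did not pass the test (adjusted p 0.77). Of 19 core clock genes tested, 2 rose and 1 fell, with a median log2 difference of -0.03 against -0.04 for all rows. Of 9 clock output genes, 0 rose and 2 fell, with a median of -0.24. These 5 changed genes were called in all 12 fits that left out a mouse. Per the study's methods, behaviour took place in the light phase, from 8 in the morning to noon. A clock time per mouse, or for the home cage collection, was not given in the sources used here, so time of day and training cannot be told apart for these genes.

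**Figure D2:**
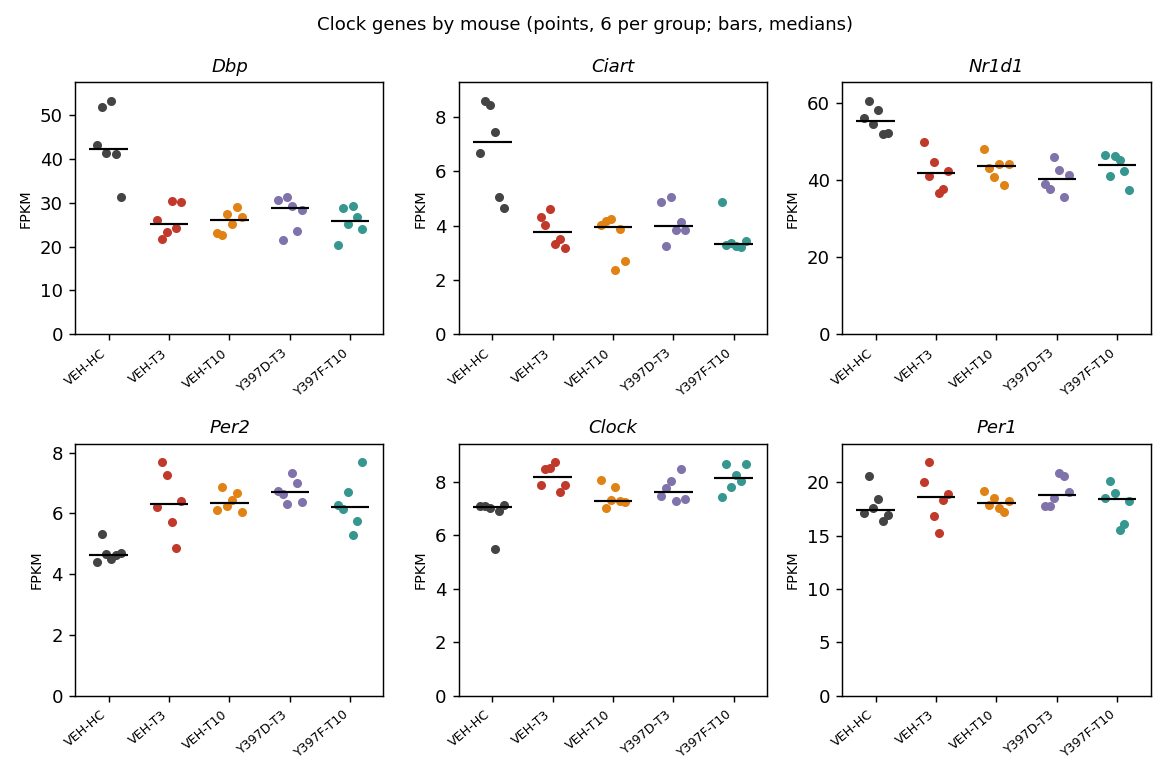
FPKM (vertical axes, linear) of Dbp, Ciart, Nr1d1, Per2, Clock and Per1 in the 5 groups, with 1 point per mouse and a bar at the median. The 6 VEH-T3 mice lie below the 6 VEH-HC mice for Dbp, Ciart and Nr1d1 and above them for Clock, while Per2 overlaps and Per1 lies in 1 range.

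Among activity-induced transcription factors, Egr1 changed most (chr18:34859823-34864984). This zinc finger immediate-early factor had levels of 30.8, 37.1 and 39.7 FPKM in VEH-HC (lowest, median, highest) and of 44.8, 58.5 and 64.2 FPKM in VEH-T3. No trained mouse overlapped the home cage range (log2 difference 0.61, SE 0.13, adjusted p 0.010). Nr4a3, a nuclear receptor of the same class of genes, had medians of 14.4 and 19.3 FPKM (log2 difference 0.37, adjusted p 0.028), and Egr3, a relative of Egr1, 27.1 and 32.9 FPKM (0.24, adjusted p 0.046). Nr4a3 and Egr3 stayed called in 6 and 4 of the 12 fits that left out a mouse and Egr1 in 12, and Nr4a3 had an adjusted p of 0.077 with length and GC content removed. Of 27 immediate-early transcription factors tested, these 3 rose (11.1%, against 2.23% of all rows) and 0 fell, and the median log2 difference of the 27 was 0.04. Without VEH-HC mouse 4 the count was 1, Egr1, and with length and GC content removed it was 5 higher and 0 lower of the 27.

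Other well known genes of this class did not pass the test. Fos, a subunit of the AP-1 factor, had a median of 4.58 FPKM in VEH-HC and 6.83 FPKM in VEH-T3, with overlapping groups (log2 difference 0.39, SE 0.14, adjusted p 0.096, and 0.48 with an adjusted p of 0.043 when length and GC content were removed). Npas4, which is induced by calcium entry, had medians of 1.48 and 2.48 FPKM (log2 difference 0.45, adjusted p 0.12). Arc, a synaptic protein of the same early wave, had medians of 37.6 and 44.5 FPKM (0.18, adjusted p 0.51), and Nr4a1 medians of 24.0 and 25.9 FPKM (0.10, adjusted p 0.71). A p that misses the threshold does not show that they stayed level.

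Among activity-regulated effectors, Homer1 rose most (chr13:93299635-93405129). This scaffold of the postsynaptic density, whose short form is induced by activity, had levels of 14.4, 16.2 and 17.4 FPKM in VEH-HC and of 18.8, 22.7 and 25.1 FPKM in VEH-T3. The groups did not overlap (log2 difference 0.45, SE 0.076, adjusted p 0.0039), and the table gives 1 value per gene, so the short and long forms cannot be told apart. Dusp6, a phosphatase of ERK, had medians of 18.1 and 25.1 FPKM (log2 difference 0.35, adjusted p 0.037), and Spred1, an inhibitor of the Ras and ERK pathway, 21.6 and 24.6 FPKM (0.18, adjusted p 0.017). Of 33 effectors tested, these 3 rose (9.09%) and 0 fell, with a median of 0.06, and without VEH-HC mouse 4 the count was 1, Homer1. Dusp6 was called in 3 of the 12 leave-one-out fits, and Spred1 had an adjusted p of 0.11 with length and GC content removed.

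**Figure D3:**
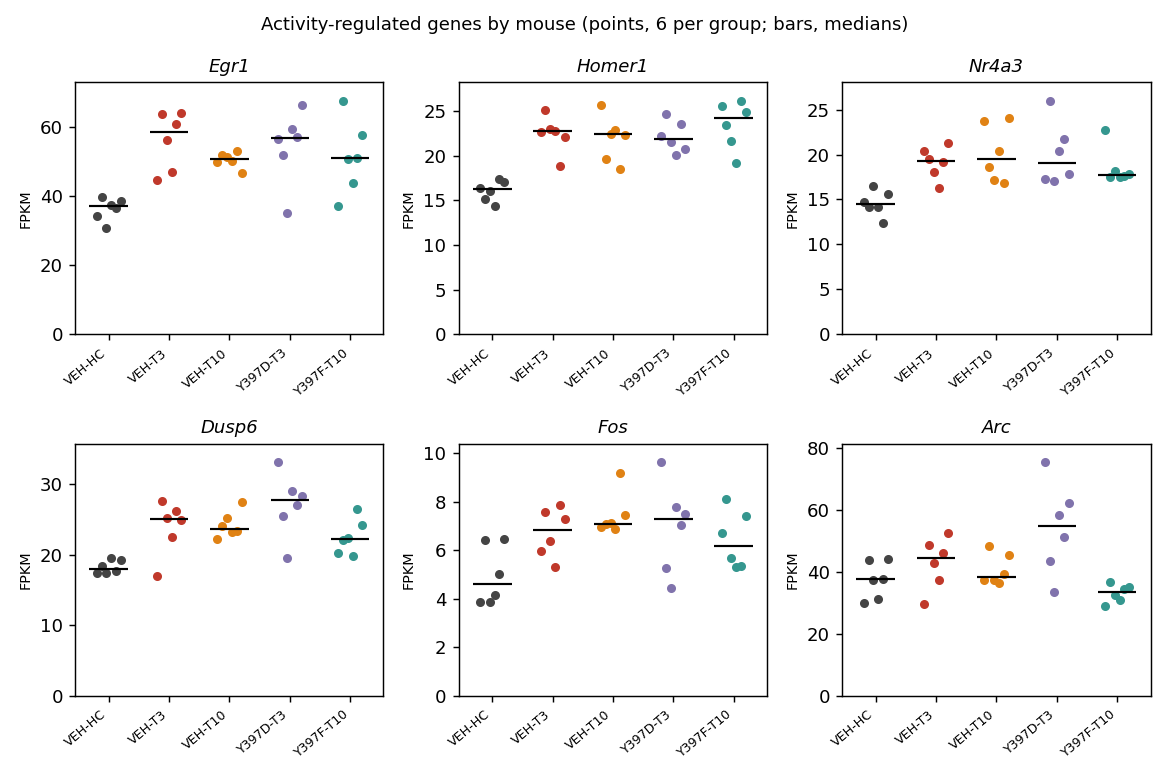
FPKM (vertical axes, linear) of Egr1, Homer1, Nr4a3, Dusp6, Fos and Arc in the 5 groups, with 1 point per mouse and a bar at the median. The 6 VEH-T3 mice lie above the home cage range for Egr1 and Homer1 and overlap it for the other 4 genes.

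Several enzymes that write and erase histone methylation rose. Of 45 such genes tested, 9 were higher (20%, against 2.23% of all rows) and 0 lower, with a median log2 difference of 0.08. Kdm7a, a demethylase of histone H3 lysine 9 and lysine 27, changed most. Its levels were 4.72, 6.00 and 6.38 FPKM in VEH-HC and 7.36, 8.81 and 11.5 FPKM in VEH-T3, without overlap (log2 difference 0.57, SE 0.081, adjusted p 0.000865). Dot1l, the methyltransferase of H3 lysine 79, had medians of 7.75 and 10.6 FPKM (0.39, adjusted p 0.012). Kmt2d, Kmt2a and Kmt2c, methyltransferases of H3 lysine 4, had log2 differences of 0.40, 0.35 and 0.30, and Jmjd1c, Ash1l, Kdm3a and Nsd1 ranged from 0.20 to 0.23. The list holds long transcripts, with a median of 6449 bases against 3437 bases for all rows. Without VEH-HC mouse 4 the count fell to 2, Kdm7a and Dot1l, and with length and GC content removed it was 3 of 41, those 2 and Kdm3a.

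Crebbp, which encodes CBP, had levels of 3.89, 5.88 and 6.59 FPKM in VEH-HC and of 6.36, 7.76 and 8.49 FPKM in VEH-T3, where mouse 5 alone lay in the home cage range. The log2 difference was 0.38 (SE 0.075, adjusted p 0.0091), and the call held in 12 of 12 leave-one-out fits. Ncoa3, a nuclear receptor coactivator, and Creb1, which encodes CREB, rose by 0.29 and 0.23 on the log2 scale (adjusted p 0.019 and 0.017), and Creb1 had an adjusted p of 0.17 with length and GC content removed. They make 3 of 18 genes of the CBP, CREB and acetyltransferase list (16.7%), of which 0 fell, and without VEH-HC mouse 4 the count was 1. Chd1, Bptf and Chd9, ATP-dependent remodellers, were 3 of 19 CHD and ISWI genes that rose (15.8%), by 0.20 to 0.22, and 0 of the 19 were called by limma without VEH-HC mouse 4 or with length and GC content removed.

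The BAF complex itself gave 0 raised and 2 lowered genes of 27 (7.41%, against 2.94% of all rows). Smarcb1, a core subunit, had medians of 43.4 and 37.5 FPKM (log2 difference -0.22, adjusted p 0.021), and Smarcd1, an accessory subunit, 37.2 and 33.0 FPKM (-0.18, adjusted p 0.027, and 0.59 with length and GC content removed). Without VEH-HC mouse 4, limma called 0 of the 27, with adjusted p of 0.063 and 0.070 for these 2 genes, and with length and GC content removed 1 was higher, Smarcd2 (named after its values were seen), and 1 lower, Smarcb1. Ss18l1, the gene for CREST, ranged from 11.4 to 13.3 FPKM with a median of 12.5 in VEH-HC and from 11.8 to 14.7 FPKM with a median of 12.9 in VEH-T3. The difference did not pass a 2-sided exact permutation test (p 0.29, n = 6 and 6, smallest possible p 0.0022) and its limma adjusted p was 0.60.

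**Figure D4:**
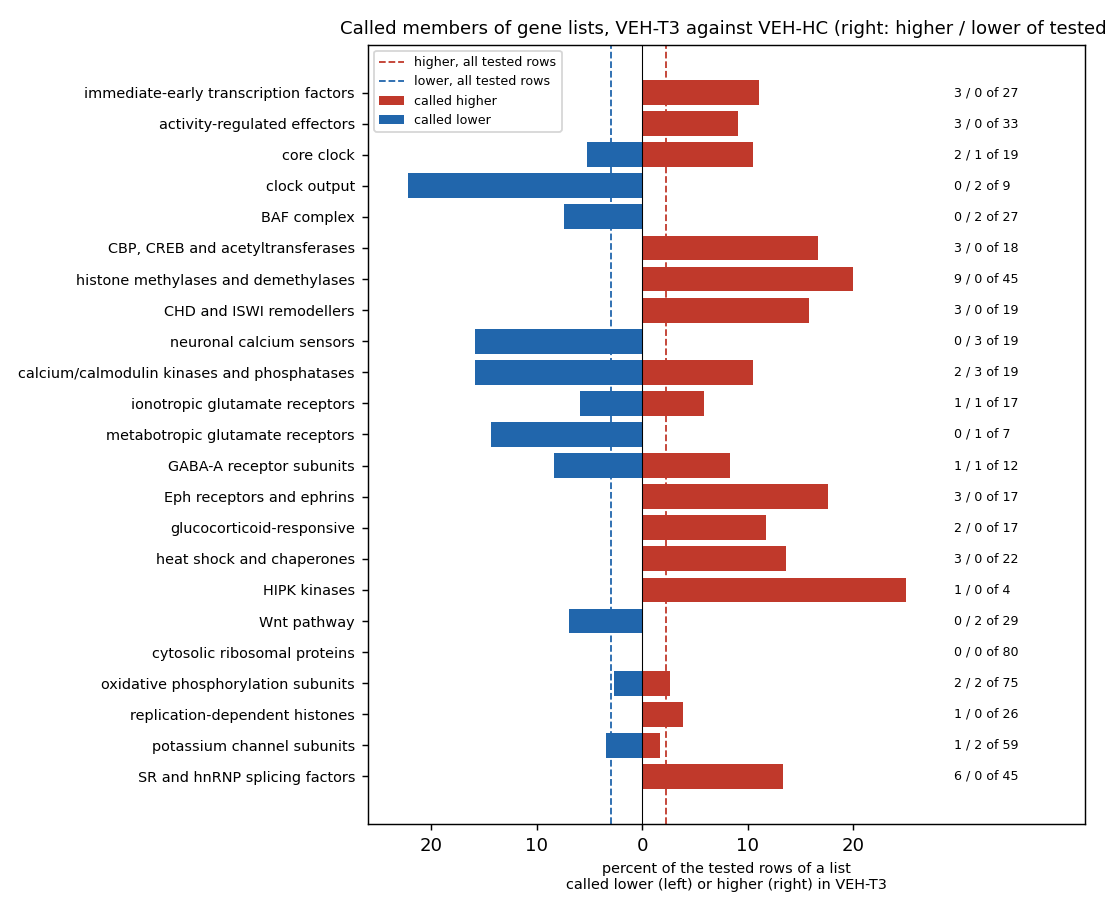
Percent of the tested genes of each pathway list called higher or lower in VEH-T3 (horizontal axis, from 0), with counts at the right and dashed lines at the shares of all rows, 2.23% and 2.94%. Histone methylation enzymes stand at 20% higher and cytosolic ribosomal proteins at 0.

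A few receptors and channels of the synapse were called, in both directions. Grin2a, the GluN2A subunit of the NMDA receptor, had levels of 3.45, 8.69 and 11.0 FPKM in VEH-HC and of 9.10, 15.0 and 18.0 FPKM in VEH-T3 (log2 difference 0.80, SE 0.18, adjusted p 0.015), and the groups overlapped. Grin2b, the GluN2B subunit, had medians of 12 and 11.5 FPKM and did not pass (0.09, adjusted p 0.86). Grik1, a kainate receptor subunit, and Grm4, a presynaptic metabotropic receptor, were lower by -0.53 and -0.47 on the log2 scale (adjusted p 0.041 and 0.027), although both were higher in VEH-T3 mouse 1 than in the lowest home cage mouse. In all, 1 of 17 ionotropic glutamate receptor genes rose and 1 fell, 0 and 1 of 7 metabotropic, and 1 and 1 of 12 GABA-A subunits, with Gabrb1 higher (0.34) and Gabrg1 lower (-0.41). Over all rows, 2.23% were higher and 2.94% lower. With 0 or 1 call each way in lists this short, the counts are no result about the lists. With length and GC content removed, Grik1, Grm4 and Gabrb1 had adjusted p of 0.13, 0.081 and 0.22, and without VEH-HC mouse 4 Grin2a alone stayed called in these 3 lists.

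Epha6, Epha5 and Epha4, receptors that guide axons and shape spines, rose together. Epha6 had levels of 7.39, 10.8 and 12.7 FPKM in VEH-HC and of 13.4, 17.7 and 20.1 FPKM in VEH-T3, without overlap (log2 difference 0.69, SE 0.12, adjusted p 0.0047). Epha5 and Epha4 rose by 0.39 and 0.31 (adjusted p 0.013 and 0.018). These were 3 of 17 Eph receptors and ephrins (17.6%), 0 fell, and the median over the 17 was 0.01. All 3 remained called with length and GC content removed, and Epha4 had an adjusted p of 0.051 without VEH-HC mouse 4. Among 59 potassium channel subunits, Kcnq3, which carries the M-current, rose from a median of 10.8 to 15.6 FPKM (0.56, adjusted p 0.013), and the electrically silent subunits Kcns1 and Kcnf1 fell by 0.56 and 0.42 on the log2 scale (adjusted p 0.0042 and 0.048), a share of 1.69% up and 3.39% down that is close to the background. Kcnf1 had an adjusted p of 0.15 with length and GC content removed.

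Calcium-handling genes split. Of 19 neuronal calcium sensors, 0 rose and 3 fell (15.8%, against 2.94%). Calb2, which encodes calretinin, had levels of 18.7, 34.6 and 42 FPKM in VEH-HC and of 6.28, 8.59 and 26.9 FPKM in VEH-T3 (log2 difference -1.37, SE 0.37, adjusted p 0.030), with overlap from VEH-T3 mice 1 and 5 at 25.5 and 26.9 FPKM. Hpcal1, a visinin-like sensor, had medians of 31.8 and 22.2 FPKM without overlap (-0.46, adjusted p 0.032), and Kcnip3, a potassium channel interacting protein that also represses transcription, 35.7 and 27.1 FPKM (-0.31, adjusted p 0.021). Of 19 calcium and calmodulin kinases and phosphatases, 2 rose and 3 fell: Ppp3ca, the calcineurin catalytic subunit, by 0.31, Camk1d by 0.21, Camk2n2, an inhibitor of CaMKII, by -0.68, and Camk2g and Ppp3cc by -0.22 each. Camk2n2 stood at 70.7 FPKM in VEH-T3 mouse 1, above every home cage mouse (58.2 to 70.1 FPKM), and at 28.0 to 46.1 FPKM in the remaining VEH-T3 mice. It stayed called in 3 of the 12 leave-one-out fits. Neither list held a call without VEH-HC mouse 4, and the 8 genes named from the 2 lists had adjusted p of 0.079 to 0.33 with length and GC content removed. In that last setting each list held 1 higher and 0 lower calls, the higher one in a gene not named here.

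In many lowered genes, VEH-T3 mouse 1 lay with the home cage mice and not with the other 5 trained mice. This was seen while the values were read and was not among the planned comparisons. In 102 of the 387 lowered rows, mouse 1 was the only VEH-T3 mouse at or above the lowest home cage mouse; the same held for mice 2 to 6 in 3, 2, 16, 47 and 32 rows. In the 294 raised rows, the mouse alone in the home cage range was mouse 1 in 38 rows and mouse 5 in 90.

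Grp, which encodes gastrin-releasing peptide, was the most changed of the 102 rows. It ranged from 17.1 to 25.0 FPKM in VEH-HC, stood at 31.1 FPKM in VEH-T3 mouse 1, and stood at 4.89, 6.50, 3.86, 2.66 and 4.15 FPKM in mice 2 to 6. The fitted log2 difference was -1.54 (SE 0.43, adjusted p 0.036), and -1.97 without mouse 1. The larger fall without that mouse follows from how the row was picked. Hrh3, the histamine H3 receptor, ranged from 16.3 to 22.1 FPKM in the home cage, was at 22.3 FPKM in mouse 1 and ran from 5.81 to 7.51 FPKM in the other 5. Ntn5, a netrin, was at 4.28 FPKM in mouse 1 and at 0.307 to 0.599 FPKM in the other 5, with 2.54 to 3.75 FPKM in VEH-HC. Rxrg, a retinoid receptor, Fxyd6, a regulator of the sodium pump, and Slc7a3, a carrier of cationic amino acids, showed the same split, with log2 differences of -0.74, -0.72 and -0.71. Slc7a3 was the one of these 6 that remained called in all 12 leave-one-out fits, and its adjusted p was 0.066 with length and GC content removed.

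The split recurred in the other trained groups. In VEH-T10 mouse 1, Y397F-T10 mouse 1 and Y397D-T3 mouse 3, 71, 84 and 64 of the 102 rows were at or above the lowest home cage mouse, and in the remaining 15 mice of those groups 1 to 29 rows were. Marker sums moved with these libraries. The 8 oligodendrocyte markers summed to 1460 FPKM in VEH-T3 mouse 1, against 2192 to 2508 FPKM in VEH-HC and 2406 to 4381 FPKM in the other 5 VEH-T3 mice, and to 1390, 1316 and 1662 FPKM in the other 3 libraries. VEH-T10 mouse 2, with 23 of the rows, had 1762 FPKM. Sums in VEH-T3 mouse 1, VEH-T10 mouse 1, Y397F-T10 mouse 1 and Y397D-T3 mouse 3, in that order, were also the lowest of each group for reactive glia (54.6, 68.5, 74.3 and 79.3 FPKM, with 139 to 618 FPKM in VEH-HC), for microglia (239, 283, 285 and 375 FPKM, with 363 to 729 FPKM in VEH-HC) and for thalamus (20.3, 15.8, 12.9 and 19.9 FPKM, with 28.7 to 38.6 FPKM in VEH-HC). The same held for astrocytes, oligodendrocyte precursors and endothelium. Deep cortical layer markers summed to 112, 94.6, 107 and 96.4 FPKM in the same libraries, the highest or next to highest of each group, with 87.7 to 99.1 FPKM in VEH-HC. The part of tissue composition in the split, and whether dissection or labelling differed for these libraries, was not tested. Dbp, Ciart, Nr1d1, Clock, Egr1 and Homer1 lay outside the home cage range in VEH-T3 mouse 1, as in the other 5 VEH-T3 mice. These genes are given above as not overlapping between the groups, so this follows from that and tells nothing further about mouse 1. Other values of activity genes in these libraries went both ways. In VEH-T3 mouse 1, Dusp6 stood at 17.0 FPKM, below every home cage mouse, against 22.6 to 27.6 FPKM in the other 5, and Egr1 (44.8 FPKM) and Arc (29.7 FPKM) were the lowest of their group. Egr1 was also the lowest of its group, and inside the home cage range, in Y397F-T10 mouse 1 (37.2 FPKM) and Y397D-T3 mouse 3 (35.0 FPKM). By contrast, Nr4a3 was the highest of its group in Y397F-T10 mouse 1 (22.8 FPKM), and Homer1 in VEH-T10 mouse 1 (25.7 FPKM). In Y397D-T3 mouse 3, Nr4a3 was the lowest of its group (17.1 FPKM). Of the 66 raised and 61 lowered rows called in all 12 leave-one-out fits, mouse 1 lay outside the home cage range in 59 and 49. The values of mouse 1 helped to make these calls, so the counts are not independent of it.

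**Figure D5:**
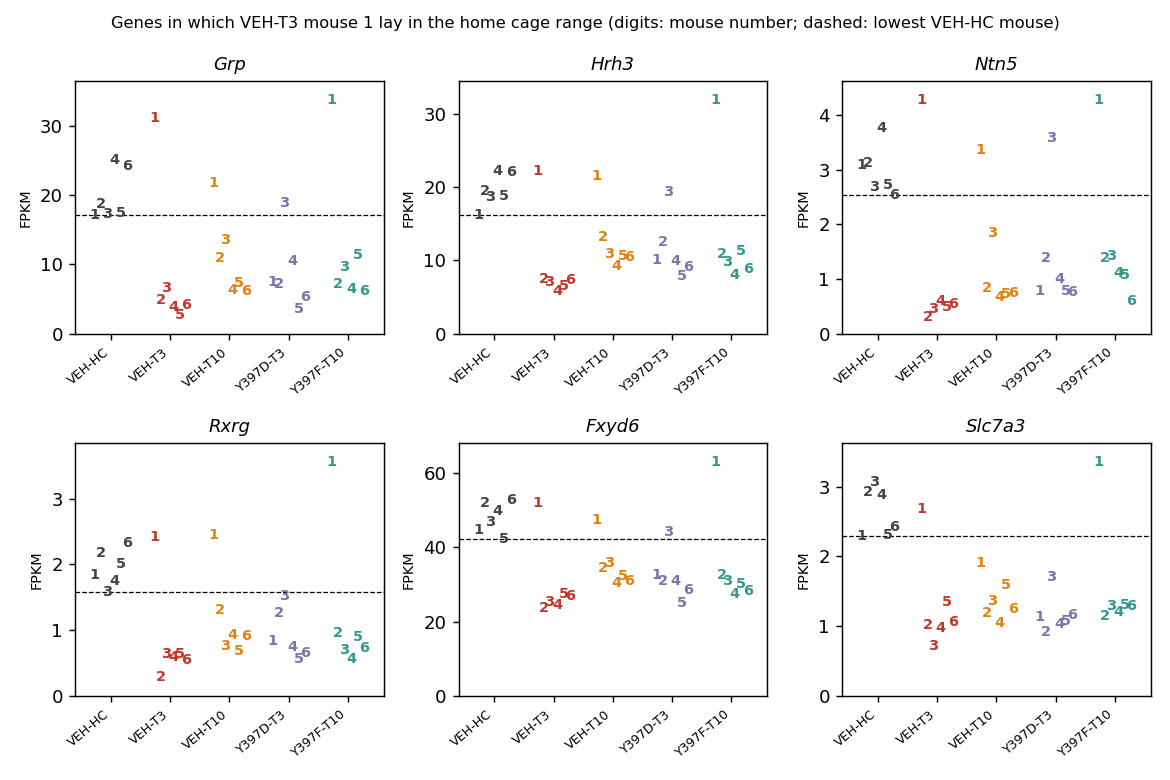
FPKM (vertical axes, linear, from 0) of Grp, Hrh3, Ntn5, Rxrg, Fxyd6 and Slc7a3 in the 5 groups, with each mouse drawn as its number and a dashed line at the lowest VEH-HC mouse. VEH-T3 mouse 1 lies above the line in all 6 genes and the other 5 VEH-T3 mice lie below it, which is the rule by which these rows were picked. Y397F-T10 mouse 1, which the rule did not use, also lies above it in all 6.

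Of 45 SR and hnRNP genes tested, 6 rose (13.3%) and 0 fell. Srsf10 had medians of 17.6 and 19.9 FPKM without overlap (log2 difference 0.25, SE 0.048, adjusted p 0.0078), and Srrm2, a large protein of the spliceosome, 37.9 and 47.1 FPKM (0.36, adjusted p 0.026). Tra2a, Rbfox1, Srsf1 and Hnrnpu rose by 0.26, 0.23, 0.16 and 0.13. The count was 2 without VEH-HC mouse 4 and 6 higher and 1 lower with length and GC content removed, when Srsf1 and Hnrnpu had adjusted p of 0.094 and 0.63 and Hnrnpr, named after its values were seen, was the lower gene (-0.31, adjusted p 0.047). Sfpq and Ddx17, RNA-binding proteins outside the list that were chosen after their values were seen, rose by 0.23 and 0.26 (adjusted p 0.0039 and 0.0093).

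Stress pathways gave few calls. Of 17 glucocorticoid-responsive genes, Nr3c2, the mineralocorticoid receptor, and Klf9, a factor that glucocorticoids induce, rose by 0.31 and 0.26 (adjusted p 0.026 and 0.021), a share of 11.8% against 2.23% of all rows, and 0 fell. Of 22 heat shock and chaperone genes, Chordc1, Hsf1 and Hsph1 rose by 0.21, 0.18 and 0.17 (13.6%) and 0 fell. Of 4 HIPK kinases, Hipk2 rose, from 1.24, 5.30 and 6.42 FPKM to 7.13, 7.63 and 8.65 FPKM (0.68, adjusted p 0.024). Of 29 Wnt pathway genes, 0 rose and Wnt7b and Wnt4, both ligands, fell by 0.39 and 0.38 on the log2 scale (6.90%, against 2.94% of all rows), each with VEH-T3 mouse 1 in the home cage range. With length and GC content removed, Chordc1, Hsph1, Wnt7b and Wnt4 did not pass. Without VEH-HC mouse 4, limma called 0 genes of the glucocorticoid, heat shock and Wnt lists, and Hipk2 stayed called.

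Housekeeping lists were near the background. Of 80 cytosolic ribosomal protein rows, 0 passed in either direction at a limma adjusted p under 0.05, 1 each way had an unadjusted p under 0.05, and their median log2 difference was -0.01. Of 75 subunits of oxidative phosphorylation, Uqcrb and Ndufa5 rose by 0.27 and 0.22, and Atp5d and Ndufv1 fell by 0.25 and 0.21 on the log2 scale, and all 4 had adjusted p of 0.078 to 0.61 with length and GC content removed. Of 26 histone genes of the replication-dependent clusters, Hist3h2a rose by 0.33 (adjusted p 0.037). Without VEH-HC mouse 4, limma called 0 genes of these 3 lists.

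Among the 12 raised genes with the largest log2 differences and no overlap between groups, Malat1, a nuclear long non-coding RNA, had medians of 32.5 and 49.3 FPKM (log2 difference 0.65, adjusted p 0.018). Mib1, a ubiquitin ligase of Notch ligands, had medians of 12 and 17 FPKM (0.58), Wdfy2, an endosomal adaptor, 2.74 and 4.49 FPKM (0.55), and Gatad2b, a subunit of the NuRD complex, 10.2 and 13.6 FPKM (0.49). The transcripts 2900055J20Rik, 4930470H14Rik and Gm10052 rose by 0.60, 0.53 and 0.51. Hbb-bs, an adult beta globin, was listed at 0.00180 to 0.00224 FPKM in VEH-HC and at 5.58, 0.00254, 11.2, 30, 30.1 and 9.29 FPKM in VEH-T3 mice 1 to 6. Its sequence is nearly identical to that of another globin gene, so its fragments could be split between rows, and no fold is given. Red blood cell markers as a whole summed to 939 to 1874 FPKM in VEH-HC and to 990 to 2618 FPKM in VEH-T3, so the groups overlapped.

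Among the 12 lowered genes chosen the same way, beside Dbp, Ciart, Hpcal1 and Nr1d1, Zbed5, a gene derived from a transposase, had the smallest adjusted p (0.000865), with levels of 9.89, 10.3 and 11.5 FPKM in VEH-HC and of 7.45, 7.81 and 8.74 FPKM in VEH-T3. Gaa, the lysosomal acid alpha-glucosidase, had medians of 127 and 89.8 FPKM (log2 difference -0.40, adjusted p 0.0060). Nsun3, which methylates a mitochondrial transfer RNA, Kirrel3, a synaptic adhesion molecule, and G6pc3, a glucose-6-phosphatase, were lower by -0.40 each, and Ptp4a3, Chst12 and Rasip1 by -0.38, -0.35 and -0.34. Nr1d1, G6pc3, Chst12, Rasip1, Kirrel3 and Hpcal1 did not pass once length and GC content were removed.

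In 2-sided exact permutation tests none of the 17 summed marker lists reached p under 0.05 (20 levels compared in this family, Benjamini-Hochberg adjusted p 0.99 for each list, n = 6 and 6). Spread was wider in VEH-T3. The 13 choroid plexus markers summed to 1087 to 6456 FPKM in VEH-HC and to 66.3 to 14560 FPKM in VEH-T3, and 0 of the 13 were called by limma, or had an unadjusted p under 0.05. Of all the markers, Flt1 of endothelium, Rgs5 of mural cells and Hbb-bs were called, each higher. Without VEH-T3 mouse 1, limma called 3 of 6 deep cortical layer and 4 of 10 GABAergic interneuron markers lower, and 0 higher. In each other marker list at most 1 marker was called in a direction. A sum is carried by its abundant members. Among deep cortical markers, medians in VEH-HC and VEH-T3 were 35.8 and 40.1 FPKM for Hs3st4, 4.50 and 2.41 FPKM for Ctgf, and 2.05 and 0.621 FPKM for Cplx3.

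Training of 10 min was compared with training of 3 min directly, since both were also compared with the same home cage mice and those differences are not independent. Of 13184 rows, 6 differed between VEH-T3 and VEH-T10 (0.0455%), each higher in VEH-T3, and at an unadjusted p under 0.05 there were 1075. Among them were Lrrc58, Nucks1, Rc3h1, Rlim and Tbl1xr1, named after their values were seen, with log2 differences of 0.20 to 0.31. Rc3h1, which encodes an RNA-binding ubiquitin ligase, ranged from 4.49 to 5.22 FPKM after 3 min and from 3.50 to 3.87 FPKM after 10 min. Against the home cage, limma called Lrrc58, Rc3h1 and Tbl1xr1 higher in VEH-T3 (0.22, 0.21 and 0.14). Nucks1 and Rlim did not pass there (0.02 and 0.04, adjusted p 0.77 and 0.70). In VEH-T10 these 2 were lower than in the home cage (-0.17 and -0.21, adjusted p 0.026 and 0.030). None of the 6 passed when libraries were centred on their medians or when length and GC content were removed.

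None of the named clock or activity genes differed between the sessions. For Dbp the difference of VEH-T3 from VEH-T10 was 0.01 on the log2 scale (SE 0.11, adjusted p 0.99), and for Homer1 0.03 (SE 0.076, adjusted p 0.93). Against the shared home cage mice, the log2 differences of VEH-T3, VEH-T10 and Y397D-T3 were -0.72, -0.73 and -0.65 for Dbp, 0.45, 0.42 and 0.44 for Homer1, and 0.61, 0.47 and 0.55 for Egr1, of which the VEH-T10 value of Egr1 did not pass (adjusted p 0.065). For Crebbp they were 0.38, 0.07 and 0.32, and the direct difference of the sessions, 0.31 (SE 0.075), had an adjusted p of 0.19.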

How the data were processed

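RNA of 30 mice was sequenced as paired reads on NovaSeq and HiSeq instruments; which library ran on which was not given in the sources used here. The authors aligned to mm10 with TopHat2 2.1.1 and deposited FPKM values from Cufflinks 2.2.1, used as they stand. FPKM holds no counts, so absolute depth is unknown. Rows with a mean of at least 1 FPKM were fitted as log2(FPKM + 1) with limma 3.58.1 in R 4.3.3, 1 coefficient per group, a variance trend and Benjamini-Hochberg adjustment over 13184 rows, at 0.05; single levels were compared by exact permutation. The test was checked on simulated data in which rows were drawn independently. Those data held no length or GC trend and no library that stood apart, so the check does not cover these features. The rest was done in Python 3.11.15 (pandas 2.3.3, numpy 2.4.6, matplotlib 3.10.9, scipy 1.17.1). Positions, and the length and GC content of the longest transcript per symbol, come from GENCODE (96.2% of rows matched by symbol), promoters from RefSeq. Named genes are the 12 largest changes per direction among called rows without overlap, up to 4 called genes per list, and a few fixed genes; genes outside this are said to be chosen after their values were seen. 1 gene is not reported here. Members and lists were chosen with earlier results of these data known. Alternatives were a pseudocount of 0.1, no filter, median centring, the 12 libraries alone, the replicate number as a block, summed symbols, array quality weights, removal of length and GC trends, unadjusted p values and each mouse left out. Further combinations were added after the data had been seen: the 12 libraries without length and GC trends, the 12 libraries without VEH-HC mouse 4, and both VEH-HC mouse 4 and VEH-T3 mouse 1 left out.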

Additional observations from a re-analysis of the deposited data

Results flagged for a closer look

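In 15 of 164 groups of 6 mice, each a named gene in VEH-HC or VEH-T3, 1 mouse lay far from the other 5 by Dixon's criterion, which chance meets in about 1 group in 20. VEH-HC mouse 4 was that mouse in 8 of them. It had 1.24 FPKM of Hipk2 (others 5.12 to 6.42), 5.68 of Mib1 (11.3 to 13.0), 5.86 of Gatad2b (9.22 to 10.5), 5.50 of Clock (6.92 to 7.13), 3.89 of Crebbp (5.76 to 6.59), 4.89 of Kmt2a (7.33 to 8.69) and 6.33 of Bptf (8.55 to 9.28), all below the other home cage mice, and 15.7 FPKM of Chst12 (13.9 to 14.4), above them. VEH-T3 mouse 1 was that mouse in 6, above the other 5 each time, with 34.2 FPKM of Kcnip3 (26.1 to 28.7), 3.94 of Grik1 (1.25 to 2.00), 4.46 of Gabrg1 (2.75 to 3.26), 2.93 of Wnt4 (1.93 to 2.25), 6.14 of Kcns1 (3.33 to 4.23) and 15.5 of Kcnf1 (9.44 to 10.7). VEH-HC mouse 2 had 5.32 FPKM of Per2 (4.39 to 4.68). The cause was not tested.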

How the results depend on the processing

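The counts of 294 higher and 387 lower rows were 295 and 386 with a pseudocount of 0.1, 221 and 291 without a filter, and 292 and 383 with symbols summed. They were 239 and 102 with libraries centred on their medians, which shifts the median of all rows by 0.021 on the log2 scale and moves the split toward higher rows, 178 and 37 with length and GC content removed, 854 and 1606 with quality weights, 1027 and 1818 at an unadjusted p under 0.05, and 283 and 581 without both VEH-HC mouse 4 and VEH-T3 mouse 1. In the 12 libraries alone they were 0 and 0, also when centred or without VEH-HC mouse 4, and 3 and 0 with length and GC content removed; fewer samples estimate the spread there. Leaving out 1 mouse gave 77 to 472 higher and 78 to 817 lower rows. Without VEH-HC mouse 4 they were 77 and 78, without mouse 2 160 and 165, without mouse 5 180 and 234, and without mouse 3 206 and 228. Without VEH-T3 mouse 2 they were 91 and 89, without mouse 3 107 and 96, without mouse 6 170 and 269, without mouse 1 472 and 817, and without mouse 5 440 and 603. The 6 rows that differed from VEH-T10 were 0 when centred, in the 12 libraries alone (also when centred), with a replicate block and with length and GC content removed, 53 with quality weights and 1075 at an unadjusted p. Replicate numbers are shared between groups but belong to different mice. Same-numbered VEH-HC and VEH-T3 mice correlated at -0.44 to 0.39, and 2 of 6 VEH-HC mice correlated best with the VEH-T3 mouse of their number. Correlations with the other groups are not given. Mouse 1 of VEH-T3, VEH-T10 and Y397F-T10 shared the home cage levels of many lowered genes described above. With the replicate block the counts were 273 and 469, and 0 and 0 in the 12 libraries. Of 82 named genes, 74 lost the call in the 12 libraries alone, 43 without VEH-HC mouse 4, 34 with length and GC content removed and 3 with the block, and none changed sign under any alternative run. Except for the split named above, the cause was not tested.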
